A study of Rattus norvegicus with 65 samples.

Results

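The 6 livers described here came from rats given 1,4-Dioxane (Dioxane below), 3 in the group titled long and 3 in the group titled short, out of 65 rats with 1 array each in the whole series. They are the samples with these titles, and no measured value entered that rule. The comparison is long minus short with no control rat in it. All 6 were male Sprague-Dawley rats, 6 weeks old, in a set labelled nongenotoxic carcinogen, and each array measured total liver RNA. The source labels give 72 h for long and 3 h for short, whereas the treatment protocol speaks of 3 administrations in repeated groups and of autopsy a day later. The words long and short are therefore used without hours. The labels give neither a dose of Dioxane nor the clock hour of dosing or autopsy, so the number of doses, the length of exposure, the time since the last dose and the hour of the day cannot be told apart. Beside them stand 3 control rats of the same set (no treatment time given), 6 rats given Clofibrate in that set and 6 given Ethionine (titled DL-Ethionine) in it. The long and short rats of 7 further hepatocarcinogens are also used, in which DEN short holds 2 rats. In the genotoxic set these are 2-AAF (AAF below), 3MeDAB (MeDAB below) and DEN. In the test set they are DCP, ME, SN and Urethane. The genotoxic set also holds 3 control rats, which enter the fit but no comparison. Labels call the 3 rats of a group biological replicates.

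1,4-Dioxane is a water-soluble cyclic ether used as a solvent and is a liver carcinogen in rats. It is oxidised by liver cytochrome P450 enzymes, among them Cyp2e1. Liver RNA also follows the time of day and feeding: BMAL1 (Bmal1) with CLOCK or NPAS2 activates a set of genes that includes the Period genes and Dbp, and the products of the Period and Cryptochrome genes repress that activity. Glucocorticoid, growth hormone and interferon each act on the liver through their own receptor and a set of known target genes.

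Each value below is the deposited log2 signal of 1 probe set, the brightest single-symbol probe set of its gene, and a difference of 1 is a doubling. The median value over the series was 6.03. Levels of different probe sets are not compared with each other. Of 21 called genes named here with over 1 tested probe set, 10 passed in all of them when probe sets were tested singly. Against the liver label, 0 of 18 hepatocyte markers lay below that median in all 6 rats and 0 of 18 passed the test. Their summed linear signal was 251148 to 257202 in long and 252613 to 258740 in short rats. The GAPDH 3' probe set exceeded its 5' probe set by 0.464 to 0.586 in long and by 0.377 to 0.496 in short rats, and the corresponding beta-actin gap was 2.68 to 2.94 against 2.18 to 2.75. Both gaps tended to the high side in long rats with overlapping groups, and their part in the results was not tested.

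Liver RNA of long and short Dioxane rats differed in some clock genes, some glucocorticoid-responsive and immediate early genes, and some interferon-inducible genes. Of 16 clock output genes tested 7 were lower in long rats, of 24 glucocorticoid and gluconeogenesis genes 4 and of 27 immediate early genes 4, while 8 of 37 interferon response genes were higher. Over all 11007 genes tested with limma, 584 passed a Benjamini-Hochberg adjusted p under 0.05 (5.31%). Of these 338 were higher (3.07%) and 246 lower (2.23%) in long rats. An unadjusted p under 0.05 was reached by 2051 genes, and the median difference over all genes tested was 0.01. Among the called genes, 124 differed by more than 1 on the log2 scale (56 higher, 68 lower), 21 by more than 2 and 1, Usp2, by more than 3. In 576 of the 584 the 3 long arrays did not overlap the 3 short ones, against 28.7% of all genes tested. The count of 584 became 350, 244 and 360 without long rat 1, 2 and 3, and 291, 360 and 484 without short rat 1, 2 and 3.

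**Figure D1:**
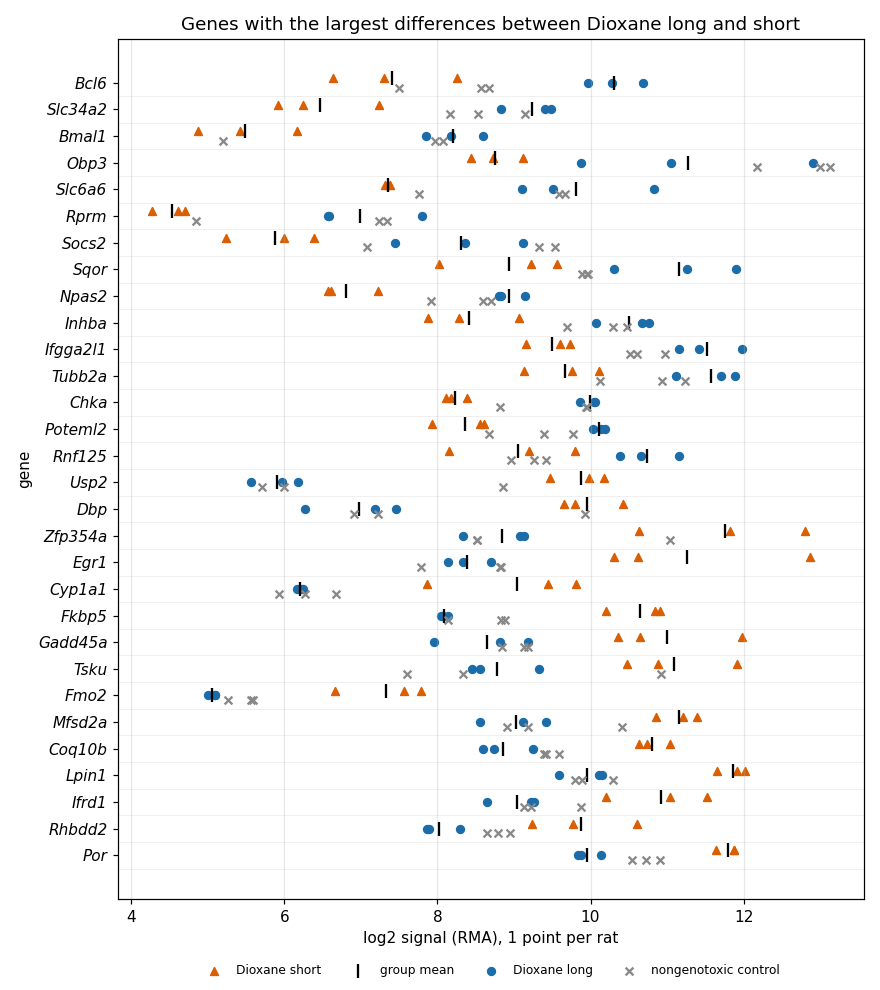
Log2 RMA signal (x axis) of the 15 called genes with the largest rise and the 15 with the largest fall (y axis), 1 point per rat: triangles for Dioxane short, circles for Dioxane long, crosses for the 3 nongenotoxic control rats, black bars for the means of the Dioxane groups. Within each row the 3 long rats do not overlap the 3 short rats, and the gap between the means is widest for Usp2 (-3.97).

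The largest difference among called genes lay in a clock output gene, and the genes of the clock's activating arm were higher in long rats, as 3 of 13 core genes passed higher and 1 lower. Bmal1, the activator that pairs with CLOCK or NPAS2, read 8.17, 8.59 and 7.86 in the long rats against 5.42, 4.88 and 6.17 in the short rats. Every long rat lay above every short rat, and the means differed by 2.72 ± 0.53 (SE, adjusted p = 0.00181). Npas2, the paralog of Clock, read 8.81, 9.15 and 8.83 in the long rats against 6.57, 6.61 and 7.22 in the short rats and rose by 2.13 ± 0.42 (adjusted p = 0.00203). For Clock itself the values were 9.62, 9.93 and 9.45 in the long rats against 8.55, 8.48 and 9.05 in the short rats, a rise of 0.97 ± 0.18 (adjusted p = 0.0011). For Npas2 and Clock too the long rats lay above all short rats, and all 3 calls held when any 1 of the 6 rats was left out. Of 4 probe sets for Clock 3 passed higher, and the remaining one differed by 0.07.

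Usp2, a ubiquitin-specific protease whose RNA cycles strongly in liver, gave the largest difference of all genes tested that passed. It read 6.18, 5.56 and 5.96 in the long rats against 10.17, 9.97 and 9.48 in the short rats, a fall of 3.97 ± 0.65 (SE), about 15.7-fold (adjusted p = 0.000404). Its other probe set passed too and fell less, by 1.98. Dbp, a D-box-binding transcription factor driven by BMAL1, read 7.18, 6.27 and 7.46 in the long rats against 9.65, 10.42 and 9.80 in the short rats. Long rats again lay below all short rats, and the difference of -2.99 ± 0.80 passed at adjusted p = 0.0227. That call was lost without long rat 1 or 2, or short rat 1 or 2, with an adjusted p of up to 0.126. Tef, a relative of Dbp, read 8.24, 7.87 and 8.22 in the long rats against 9.01, 9.58 and 9.17 in the short rats and fell by 1.15 ± 0.22 (adjusted p = 0.0014). Per3, a Period gene, read 6.00, 5.95 and 6.19 in the long rats against 7.02, 7.49 and 7.03 in the short rats and differed by -1.13 ± 0.25 (adjusted p = 0.00617). Both kept their calls without any 1 Dioxane rat, but only 1 of 2 probe sets of each passed, and the other for Per3 differed by 0.08. Per3 missed the threshold with averaged probe sets (adjusted p up to 0.0543).

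The lower core gene was Per3, and the median of the 13 was -0.05. The others missed the threshold: the repressors Nr1d1 and Nr1d2 differed by -0.84 (adjusted p = 0.198) and -0.64 (adjusted p = 0.121), and Per1 by -0.83 (adjusted p = 0.0707). Nfil3 and Cry1 differed by 0.84 (adjusted p = 0.214) and 0.44 (adjusted p = 0.562). Per2 was nearest to level, with a difference of -0.05 and a 95% interval of -0.31 to 0.22. Of 16 clock output genes, 2 passed higher and 7 lower, with a median of -0.92 against 0.01 over all genes. Among them Por, the electron donor of microsomal P450 enzymes, read 9.83, 9.88 and 10.14 in the long rats against 11.64, 11.87 and 11.87 in the short rats and fell by 1.84 ± 0.27 (adjusted p = 9.97e-05). Lpin1, a phosphatidate phosphatase, read 9.59, 10.11 and 10.14 in the long rats against 11.92, 11.65 and 12.02 in the short rats and differed by -1.92 ± 0.45 (adjusted p = 0.00916), a call lost without long rat 1. Gpam, which starts glycerolipid synthesis in mitochondria, went the other way, at 7.07, 6.55 and 6.84 in the long rats against 5.23, 5.64 and 5.85 in the short rats (difference 1.25, adjusted p = 0.00178). The count of 7 lower fell to as few as 4 when single Dioxane rats were left out.

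**Figure D2:**
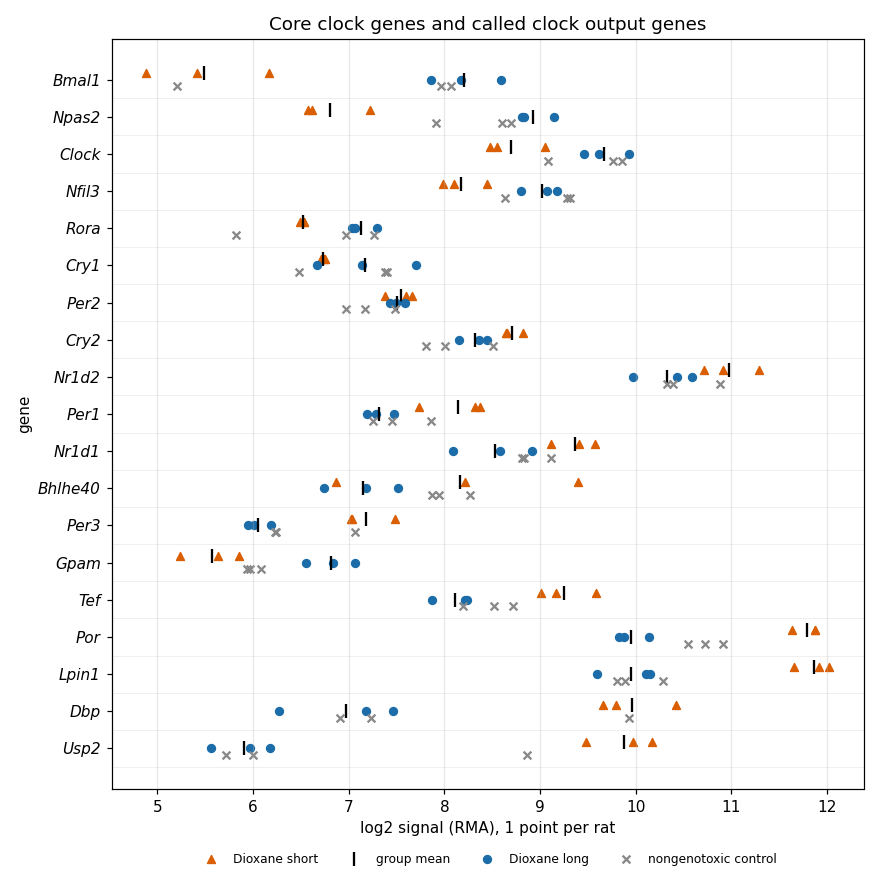
Log2 RMA signal (x axis) of the core clock genes and the named called clock output genes (y axis), 1 point per rat, with triangles for Dioxane short, circles for Dioxane long, crosses for control and black bars for Dioxane group means. Bmal1, Npas2 and Clock lie to the right in long rats and Usp2, Dbp and Por to the left, and for Bmal1 control rat 1 lies at 5.20 while control rats 2 and 3 lie at 7.97 and 8.07.

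The 3 control rats differed among themselves in clock genes. For Bmal1 control rat 1 read 5.20, inside the short range, and control rats 2 and 3 read 7.97 and 8.07, inside the long range. For Usp2 they read 8.86, 5.71 and 6.00, with control rat 1 between the Dioxane groups and the others within the long range. For Dbp the values were 9.93, 6.91 and 7.23, so that control rat 1 again stood with the short rats. Per3 followed at 7.07, 6.23 and 6.24. The Dioxane calls did not use these rats as a baseline. Without control rat 1 in the estimate of the spread, 577 genes were called in place of 584.

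The upstream sequences of Bmal1 and Dbp are shown because these genes stood, with Usp2, for the rise and the fall among clock genes. They are the 250 bases before the annotated start in RefSeq (build GRCr8), 5' to 3' on the gene's strand, with capitals for matches to the motifs named below; Bmal1 is at chr1:176766078-176766327 on the plus strand and Dbp at chr1:105312006-105312255 on the plus strand.
Bmal1: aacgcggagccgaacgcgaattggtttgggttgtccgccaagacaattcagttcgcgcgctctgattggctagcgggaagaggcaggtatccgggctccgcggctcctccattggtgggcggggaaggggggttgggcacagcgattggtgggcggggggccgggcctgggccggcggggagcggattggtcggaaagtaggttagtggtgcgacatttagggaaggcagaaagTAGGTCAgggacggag
Dbp: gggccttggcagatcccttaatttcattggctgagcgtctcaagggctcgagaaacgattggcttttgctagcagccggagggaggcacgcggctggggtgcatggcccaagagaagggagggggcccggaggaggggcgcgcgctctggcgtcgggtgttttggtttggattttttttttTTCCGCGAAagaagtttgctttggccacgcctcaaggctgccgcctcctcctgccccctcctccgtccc
The motifs were searched on both strands. The capitals in Bmal1 are TAGGTCA, the core of the element bound by ROR and REV-ERB receptors, which 2.26% of 27457 promoters of this length hold. Neither window held the E-box CACGTG (5.79% of promoters), the D-box TTATGNAA (3.21%) or the sterol element TCACNCCAC (0.976%). The capitals in Dbp match TTCNNNGAA (7.52%), the form of a STAT site. CCAAT was also searched and is left in lower case, as 34.3% of promoters hold it. The Usp2 window held CCAAT and none of the other motifs. A match describes the letters only.

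Of 24 genes of gluconeogenesis and glucocorticoid response, 4 passed lower in long rats and 1 higher, with a median of -0.36. Fkbp5, a co-chaperone of the glucocorticoid receptor that the hormone induces, read 8.14, 8.07 and 8.05 in the long rats against 10.20, 10.84 and 10.90 in the short rats. The long rats lay close together and far below all short rats, a fall of 2.56 ± 0.36 (SE, 5.9-fold, adjusted p = 7.08e-05). Tsc22d3, another hormone-induced gene (GILZ), read 10.53, 10.45 and 10.65 in the long rats against 12.01, 11.49 and 11.27 in the short rats and differed by -1.04 ± 0.27 (adjusted p = 0.02). Igfbp1, a secreted binding protein of insulin-like growth factors, differed by -1.07 ± 0.32 (adjusted p = 0.047), and the transcription factor Foxo3 by -0.86 ± 0.23 (adjusted p = 0.0252). Nr3c1, the glucocorticoid receptor gene, was higher by 0.63 ± 0.16 (adjusted p = 0.0139). The other 19 missed the threshold, among them Tat (-0.90, adjusted p = 0.134) and Tdo2 (-0.19, adjusted p = 0.475). So did Pck1 (-0.07, adjusted p = 0.825) and Sgk1, which went the other way (0.19, adjusted p = 0.86). By sign 18 of the 24 were lower and 6 higher. The 4 lower calls fell to 1 without long rat 2 or without short rat 1, and Fkbp5 kept its call without any 1 Dioxane rat. Tsc22d3 lost its call without long rat 1 or 2, or short rat 1 (adjusted p up to 0.145), and Igfbp1 lost its call without long rat 2 or 3, or short rat 1, 2 or 3 (adjusted p up to 0.36). Igfbp1 missed the threshold with no filter, with averaged probe sets, with a trended and robust prior, in the nongenotoxic set alone and in the compared groups alone (adjusted p up to 0.109). Foxo3 lost its call without long rat 1, 2 or 3, or short rat 1 or 2 (adjusted p up to 0.196), and Nr3c1 lost its call without long rat 2, or short rat 1 or 3 (adjusted p up to 0.132). Foxo3 missed the threshold with averaged probe sets and in the compared groups alone (adjusted p up to 0.113), and Nr3c1 in the compared groups alone (adjusted p up to 0.0894).

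Of 27 immediate early and growth response genes, 4 passed lower and 1 higher, with a median of -0.74. By sign 20 were lower and 7 higher. Jun (-1.21, adjusted p = 0.0732), Myc (-1.45, adjusted p = 0.153) and Fos (-0.72, adjusted p = 0.263) missed the threshold. Egr1, an immediate early transcription factor, read 8.70, 8.14 and 8.33 in the long rats against 12.87, 10.31 and 10.62 in the short rats. Short rat 1 stood highest, and no long rat reached any short rat (difference -2.87 ± 0.61, adjusted p = 0.00413). Its call was lost without short rat 1 (adjusted p = 0.0627). Gadd45a, a stress and growth arrest gene, read 9.18, 7.96 and 8.81 in the long rats against 11.98, 10.65 and 10.36 in the short rats and fell by 2.35 ± 0.42 (adjusted p = 0.000836), a call that held without any 1 Dioxane rat. Klf10 and Junb, transcription factors of the same early class, differed by -1.59 ± 0.38 (adjusted p = 0.0108) and -1.32 ± 0.33 (adjusted p = 0.0133). The gene that passed higher was Socs2, described below. The 4 lower calls became 1 without short rat 1. Klf10 lost its call without long rat 2 or short rat 1 (adjusted p up to 0.125), and Junb lost its call without long rat 2 or short rat 1 (adjusted p up to 0.141). Klf10 missed the threshold in the compared groups alone (adjusted p up to 0.096), and Junb in the nongenotoxic set alone (adjusted p up to 0.0589). The list's summed signal was 14065 to 15087 in long, 19237 to 35889 in short and 14364 to 19361 in control rats.

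Ifgga2l1, Irgm and Igtp, interferon-inducible GTPase genes of cell-autonomous defence, were higher in long rats. In their list of interferon response genes 8 of 37 passed higher and 0 lower, with a median of 0.44. Other interferon-inducible GTPase genes of the list missed the threshold: Gbp2 (0.85, adjusted p = 0.152), Mx1 (0.52, adjusted p = 0.435) and Gbp4 (0.30, adjusted p = 0.624). By sign 32 of the 37 were higher and 5 lower. Stat2 (-0.28, adjusted p = 0.182), Cxcl9 (-0.27, adjusted p = 0.622) and Ifit1 (-0.20, adjusted p = 0.772) were among the lower ones. Ifgga2l1 read 11.42, 11.98 and 11.16 in the long rats against 9.15, 9.73 and 9.60 in the short rats. Its long rats lay above all short rats and all 3 controls (difference 2.02 ± 0.38, adjusted p = 0.00138). Irgm read 8.92, 9.05 and 8.95 in the long rats against 7.26, 7.29 and 7.65 in the short rats and rose by 1.57 ± 0.26 (adjusted p = 0.000404). Igtp read 9.55, 9.80 and 9.52 in the long rats against 8.15, 8.33 and 8.25 in the short rats and rose by 1.38 ± 0.19 (adjusted p = 4.84e-05). For Ifgga2l1, Irgm and Igtp the long rats lay above all short rats, and the calls held without any 1 Dioxane rat. The other probe set of Igtp passed with a rise of 0.49. The controls of Irgm read 8.27, 9.12 and 9.27, so that control rats 2 and 3 lay above every long rat, while those of Igtp, at 9.24, 9.47 and 9.50, lay below every long rat. Parp9, a partner of an antiviral ubiquitin ligase, was higher by 0.94 ± 0.15 (adjusted p = 0.000267), with controls at 9.28, 9.37 and 9.42 within the long range. Mx2 and Isg15, classical interferon-stimulated genes, were higher by 1.14 ± 0.32 (adjusted p = 0.0335) and 0.85 ± 0.22 (adjusted p = 0.0211). The count of 8 fell to between 4 and 6 when any 1 Dioxane rat was left out, and was 4 without long rat 3. Mx2 lost its call without any 1 of the 6 Dioxane rats (adjusted p up to 0.138), and Isg15 lost its call without long rat 2 or 3, or short rat 2 (adjusted p up to 0.0966). Mx2 missed the threshold with averaged probe sets and after joint quantile normalization (adjusted p up to 0.0523). The summed linear signal was 40341 to 43104 in long, 33169 to 34108 in short and 35724 to 39990 in control rats.

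The upstream windows of Irgm and Igtp are shown because each holds the same pair of matches side by side, in RefSeq build GRCr8 at chr10:33742579-33742828 on the minus strand and chr10:42874797-42875046 on the plus strand. Both sequences read 5' to 3' on the gene's strand, and the 2 runs of capitals in each are TTCNNNGAA, a STAT-site form, followed by GAAA and GAAA with any 2 bases between, the core of the interferon-stimulated response element.
Irgm: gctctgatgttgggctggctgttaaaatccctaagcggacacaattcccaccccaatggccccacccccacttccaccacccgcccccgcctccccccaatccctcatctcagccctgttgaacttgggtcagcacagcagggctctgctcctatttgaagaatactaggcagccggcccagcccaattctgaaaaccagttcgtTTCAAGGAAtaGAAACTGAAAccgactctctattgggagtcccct
Igtp: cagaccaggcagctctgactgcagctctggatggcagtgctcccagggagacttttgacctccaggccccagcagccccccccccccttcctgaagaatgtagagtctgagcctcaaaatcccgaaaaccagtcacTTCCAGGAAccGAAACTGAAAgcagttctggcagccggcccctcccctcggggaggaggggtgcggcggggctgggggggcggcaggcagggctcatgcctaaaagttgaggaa
In Irgm the 2 matches began 45 and 34 bases before the start, and in Igtp 114 and 103 bases before it. In both windows the second run was GAAACTGAAA. Of 27457 promoters, 3.29% held the second form and 7.52% held TTCNNNGAA. The Ifgga2l1 window also held both. This list and these 2 motifs were chosen after the values were seen. In the AHR list, Nfe2l2 held none of the motifs first set down and Cyp1a1 is named only.

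Among genes known to respond to growth hormone in either direction, or to differ by sex in rat liver, 5 of 28 tested passed higher in long rats. The list was not split by the direction of the response. Its counts therefore do not tell whether growth hormone action was higher or lower. The list had 0 passing lower and a median of 0.23, and by sign alone 23 were higher and 5 lower. Among those that missed the threshold, Cish differed by -1.04 (adjusted p = 0.174), Igf1 by 0.17 (adjusted p = 0.351) and Cyp2c11 by 0.13 (adjusted p = 0.68). Socs2, a growth hormone-induced inhibitor of the hormone's own signalling, read 8.36, 9.12 and 7.44 in the long rats against 6.00, 6.39 and 5.24 in the short rats. Its groups did not overlap (difference 2.43 ± 0.57, adjusted p = 0.00921). Obp3, of the alpha-2u-globulin family made by male rat liver, read 9.87, 12.91 and 11.04 in the long rats against 9.12, 8.72 and 8.44 in the short rats. Long rat 2 stood highest and long rat 1 nearest to the short rats (difference 2.52 ± 0.55, adjusted p = 0.0054). Mup5, of the same family, rose by 0.98 ± 0.22 (adjusted p = 0.00738). Bcl6, a transcriptional repressor, had the largest rise of all called genes and read 9.96, 10.28 and 10.68 in the long rats against 8.26, 6.63 and 7.31 in the short rats. Its difference was 2.91 ± 0.73 (SE, 7.5-fold, adjusted p = 0.0152), and the control rats at 7.50, 8.57 and 8.68 lay below every long rat. The controls lay otherwise for the rest: they read 12.17, 13.12 and 13.00 for Obp3, above the long mean of 11.28, and 13.48, 13.33 and 13.23 for Mup5, above the long mean of 12.86. For Socs2 control rats 2 and 3, at 9.33 and 9.53, lay above every long rat and control rat 1, at 7.09, below them. The list's 5 calls fell to 1 without long rat 2. Bcl6 was lost without long rat 2 or 3, or short rat 2 (adjusted p up to 0.0842), Socs2 without long rat 2 or short rat 3 (up to 0.0864) and Obp3 without long rat 2 (0.0904). Obp3 also missed the threshold in the compared groups alone (adjusted p up to 0.0832).

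Several transporters and enzymes were among the largest rises. Slc34a2, a sodium-phosphate cotransporter, read 9.40, 9.48 and 8.83 in the long rats against 6.25, 5.92 and 7.24 in the short rats. It rose by 2.77 ± 0.45 (adjusted p = 0.000404), and the long rats stood apart from the short ones. Slc6a6, the taurine transporter, read 9.51, 10.82 and 9.11 in the long rats against 7.31, 7.35 and 7.39 in the short rats and rose by 2.46 ± 0.44 (adjusted p = 0.000836). Sqor, the mitochondrial sulfide oxidase, read 11.27, 11.91 and 10.31 in the long rats against 8.02, 9.22 and 9.56 in the short rats and rose by 2.23 ± 0.42 (adjusted p = 0.00167). Chka, a choline kinase of phosphatidylcholine synthesis, and Tubb2a, a beta-tubulin, rose by 1.77 ± 0.34 (adjusted p = 0.0018) and 1.91 ± 0.33 (adjusted p = 0.000761). These 5 calls held without any 1 Dioxane rat. Rprm, a gene linked to cell cycle arrest, rose by 2.45 ± 0.59 (adjusted p = 0.0108), which was lost without long rat 2 or short rat 1 (up to 0.0943). Rnf125, a ubiquitin ligase, rose by 1.69 (adjusted p = 0.00616; lost without long rat 2 or short rat 1) and Poteml2 by 1.75 (adjusted p = 0.00992; lost without short rat 2). Rnf125 also missed it in the compared groups alone (adjusted p up to 0.059). Inhba, an activin subunit, had 2.10 ± 0.64 (adjusted p = 0.0498), a call lost when any of the 6 rats was left out and also without control rat 1, and 0 of its 2 probe sets passed when tested singly. It also missed the threshold with no filter, with a trended and robust prior and after joint quantile normalization (adjusted p up to 0.0606).

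Of the remaining large falls, Fmo2, a flavin-containing monooxygenase, read 5.00, 5.09 and 5.09 in the long rats against 7.56, 6.66 and 7.78 in the short rats. The long values fell below the series median while all short values lay above it (difference -2.27 ± 0.31, adjusted p = 5.81e-05), and its other probe set, which also passed, fell by 0.90. Mfsd2a, a lysophosphatidylcholine transporter, read 9.11, 8.55 and 9.42 in the long rats against 11.39, 11.21 and 10.85 in the short rats and fell by 2.12 ± 0.33 (adjusted p = 0.000267). Coq10b, a coenzyme Q-binding protein of mitochondria, fell by 1.95 ± 0.40 (adjusted p = 0.0031). Rhbdd2, of the rhomboid family, fell by 1.86 ± 0.28 (adjusted p = 0.000148), and the transcriptional coregulator Ifrd1 by 1.88 ± 0.31 (adjusted p = 0.000448). These 5 calls held without any 1 Dioxane rat. Zfp354a, a zinc finger protein, read 9.08, 8.33 and 9.13 in the long rats against 12.81, 11.83 and 10.64 in the short rats and differed by -2.91 ± 0.66 (adjusted p = 0.00662), which was lost without long rat 2 or short rat 1 (up to 0.0653). Tsku, a secreted protein of liver, differed by -2.31 ± 0.58 (adjusted p = 0.0152), which was lost without long rat 2 or 3, or short rat 1 (up to 0.11). Tsku also missed the threshold in the nongenotoxic set alone (adjusted p up to 0.056).

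Among enzymes of foreign compound metabolism the difference lay in single genes. Cyp1a1, a P450 induced through the AHR receptor, read 6.24, 6.17 and 6.23 in the long rats against 7.86, 9.44 and 9.81 in the short rats. The long rats lay within the range of the controls, which read 5.93, 6.67 and 6.26, and below every short rat (difference -2.83 ± 0.60, adjusted p = 0.00405). Cyp2e1, which oxidises Dioxane, read 13.90, 13.78 and 13.95 in the long rats against 13.90, 13.98 and 13.93 in the short rats, and its difference of -0.06 had a 95% interval of -0.22 to 0.11 (adjusted p = 0.767). Of 22 phase I genes, 2 passed higher, Aldh1b1 (1.21, adjusted p = 0.0256) and Cyp2c7 (0.81, adjusted p = 0.00773), and 2 lower, Cyp1a1 and Por. In the AHR list 1 of 7 passed each way, in the CAR and PXR list 1 of 17 each way, and in the list of conjugating enzymes 1 of 30 higher (Gstm5, 1.02, adjusted p = 0.0369). Of 27 NRF2 targets 0 passed higher and 1 lower, the cystine transporter Slc7a11 (-1.63 ± 0.33, adjusted p = 0.0024). Aldh1b1 lost its call without long rat 1, 2 or 3, or short rat 2 or 3 (adjusted p up to 0.146), Cyp2c7 lost its call without short rat 3 (adjusted p up to 0.0921), and Gstm5 lost its call without long rat 1 or 3, or short rat 1 or 2 (adjusted p up to 0.183). Cyp2c7 missed the threshold in the compared groups alone (adjusted p up to 0.116).

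Of 44 cell cycle genes 6 passed higher in long rats and 1 lower, with a median of 0.41. Mcm6, a subunit of the replicative helicase, read 7.21, 7.20 and 7.52 in the long rats against 5.81, 5.84 and 6.04 in the short rats. The long rats did not overlap the short ones, and the rise was 1.41 ± 0.20 (adjusted p = 6.41e-05). Mcm4, of the same helicase, read 8.48, 8.29 and 8.36 in the long rats against 7.27, 7.18 and 7.60 in the short rats and rose by 1.03 ± 0.18 (adjusted p = 0.000836). Top2a, a topoisomerase of dividing cells, and E2f1, a transcription factor of S phase entry, rose by 0.96 (adjusted p = 0.0411) and 0.49 (adjusted p = 0.0108). Ccne1, the cyclin E gene, differed by -0.80 ± 0.19 (adjusted p = 0.00847). The 6 higher calls became 2 without short rat 1, while Mcm6 and Mcm4 held their calls without any 1 Dioxane rat. The list's summed signal overlapped between groups, at 9357 to 11184 in long and 7816 to 10216 in short rats. Among 21 p53 targets 2 passed higher, the repair gene Xpc (0.68, adjusted p = 0.00512) and Phlda3 (0.56, adjusted p = 0.0344), and 0 lower. Top2a lost its call without long rat 1, 2 or 3, or short rat 1 or 2 (adjusted p up to 0.213), E2f1 lost its call without long rat 3 or short rat 1 (adjusted p up to 0.0674), and Ccne1 lost its call without long rat 3 (adjusted p up to 0.0513). Top2a missed the threshold with averaged probe sets and in the compared groups alone (adjusted p up to 0.0729). Xpc lost its call without long rat 2 or short rat 1 (adjusted p up to 0.0571), and Phlda3 lost its call without long rat 2 or 3, or short rat 1, 2 or 3 (adjusted p up to 0.197).

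In the lists of lipid, sterol and bile acid metabolism between 7.14% (PPAR alpha targets) and 13.6% (lipogenesis) of tested members passed, against 5.31% of all genes. Sqle, squalene epoxidase of cholesterol synthesis, read 9.24, 8.58 and 8.90 in the long rats against 10.64, 10.47 and 10.01 in the short rats and differed by -1.47 ± 0.26 (adjusted p = 0.000792). Hsd17b7, of the same pathway, differed by -1.18 ± 0.23 (adjusted p = 0.00181), and these were the 2 lower of 20 tested, with 0 higher and a median of -0.33. The 42 PPAR alpha targets had a median of -0.24, with 33 lower and 9 higher by sign. Of these 42, 1 passed higher, the fatty acid-binding protein gene Fabp3 (0.42, adjusted p = 0.0434). Passing lower were 2, the glycerol channel Aqp7 (-0.64, adjusted p = 0.0429) and Cpt1a, which admits fatty acids to mitochondria (-0.61, adjusted p = 0.0278). Of 22 lipogenesis genes 2 passed higher, Gpam and Mlxipl (0.63, adjusted p = 0.0309), and 1, Lpin1, lower. In bile acid synthesis and transport 1 of 20 passed each way: Nr1h4, the bile acid receptor, by 0.57 (adjusted p = 0.0496) and the sterol transporter subunit Abcg8 by -1.19 (adjusted p = 0.0434). Fabp3 lost its call without any 1 of the 6 Dioxane rats (adjusted p up to 0.181), Aqp7 lost its call without long rat 2 or 3, or short rat 2 or 3 (adjusted p up to 0.356), and Cpt1a lost its call without long rat 1 or 2, or short rat 1, 2 or 3 (adjusted p up to 0.176). Aqp7 missed the threshold with no filter, in the nongenotoxic set alone and in the compared groups alone (adjusted p up to 0.219). Mlxipl lost its call without long rat 2 or 3, or short rat 1 or 3 (adjusted p up to 0.238), Nr1h4 lost its call without long rat 1, 2 or 3, or short rat 1 or 3 (adjusted p up to 0.191), and Abcg8 lost its call without long rat 1 or 3, or short rat 1 or 2 (adjusted p up to 0.265). Mlxipl missed the threshold in the compared groups alone (adjusted p up to 0.0923), Nr1h4 with no filter, with averaged probe sets, after joint quantile normalization and in the compared groups alone (adjusted p up to 0.0854), and Abcg8 with no filter and in the compared groups alone (adjusted p up to 0.163).

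In the stress and amino acid lists between 2.86% (acute phase) and 18.8% (heat shock) of tested members passed, against 5.31% of all genes. In serine and asparagine synthesis with the integrated stress response, 3 of 25 passed lower and 0 higher, with a median of -0.59: Slc7a11, the stress regulator Nupr1 (-1.57, adjusted p = 0.0399) and the transcription factor Cebpb (-0.93, adjusted p = 0.00181). Heat shock genes gave 2 of 16 higher and 1 lower, with Hspa1a at -0.78 (adjusted p = 0.00704) and Hsph1 at 0.77 (adjusted p = 0.0203). Of 23 endoplasmic reticulum stress genes 1 passed higher and 2 lower, led by Edem1 (-0.99, adjusted p = 0.01) and Herpud1 (-0.83, adjusted p = 0.02). In the urea cycle and the breakdown of amino acids 3 of 32 passed higher and 0 lower, led by the glycine cleavage gene Gldc (1.10 ± 0.25, adjusted p = 0.00662). In methionine, one-carbon and polyamine metabolism 1 of 26 passed each way, Oaz2 (0.41, adjusted p = 0.0219) and Odc1 (-0.65, adjusted p = 0.0498), and Odc1 was lost without control rat 1. Of 35 acute phase genes 1, the interleukin-6 receptor Il6r, passed lower (-1.09, adjusted p = 0.00429) and 0 higher, and of 20 heme and iron genes 1, Ppox, passed higher (0.48, adjusted p = 0.00802). Nupr1 lost its call without long rat 2, or short rat 1, 2 or 3 (adjusted p up to 0.329). Cebpb and Hspa1a kept their calls without any 1 Dioxane rat. Nupr1 missed the threshold in the compared groups alone (adjusted p up to 0.095), and Cebpb in the compared groups alone (adjusted p up to 0.054). Hsph1 lost its call without long rat 1, or short rat 1 or 2 (adjusted p up to 0.162), Edem1 lost its call without long rat 3 (adjusted p up to 0.0521), and Herpud1 lost its call without long rat 2, or short rat 1 or 2 (adjusted p up to 0.166). Hsph1 missed the threshold with averaged probe sets and in the compared groups alone (adjusted p up to 0.0947). Gldc lost its call without short rat 2 (adjusted p up to 0.057), Oaz2 lost its call without long rat 2 or 3, or short rat 1 or 3 (adjusted p up to 0.109), and Odc1 lost its call without any 1 of the 6 Dioxane rats (adjusted p up to 0.203). Oaz2 missed the threshold with averaged probe sets and after joint quantile normalization (adjusted p up to 0.138), and Odc1 with no filter, with averaged probe sets and in the nongenotoxic set alone (adjusted p up to 0.0601). Ppox lost its call without long rat 2 or short rat 2 (adjusted p up to 0.0654). Il6r kept its call without any 1 Dioxane rat.

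**Figure D3:**
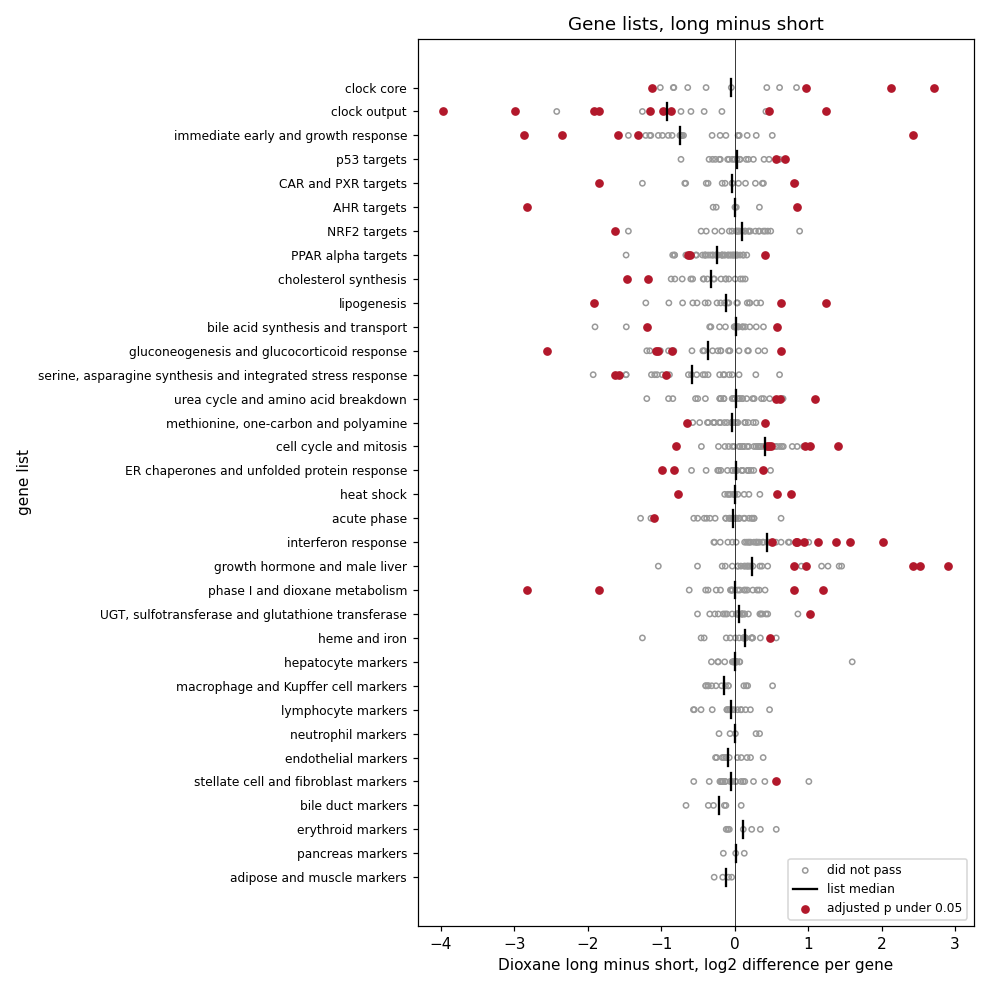
Long minus short difference in log2 signal (x axis) of every tested member of the 34 gene lists (y axis). Filled points passed an adjusted p under 0.05, open points did not, and black bars mark list medians. Clock output (median -0.92) and immediate early genes (-0.74) lie to the left, interferon response (0.44) and cell cycle genes (0.41) to the right.

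Among markers of other cell types 1 gene passed. Pdgfrb, a receptor of stellate cells, was higher by 0.57 ± 0.14 (adjusted p = 0.013), the only call among 20 stellate and fibroblast genes, whose summed signal was 11381 to 12398 in long and 11917 to 12618 in short rats. In the lists for macrophages (14 tested), lymphocytes (16), neutrophils (5), endothelium (12), bile duct (6), erythroid cells (7), pancreas (3) and adipose or muscle (4) the limma fit called 0. Lymphocyte markers summed to 3172 to 3549 in long, 3641 to 5799 in short and 3864 to 5715 in control rats, so the sums of the Dioxane groups did not overlap. Such a sum gives most weight to the brightest members. Gene by gene the median difference of this list was -0.05, with 6 members higher and 10 lower by sign. Ptprc, for one, differed by 0.47 (adjusted p = 0.153). Cd74, a gene of antigen presentation in that list, read 9.84, 10.28 and 10.30 in the long rats against 11.23, 10.37 and 10.47 in the short rats (difference -0.55, adjusted p = 0.235), and 8 of 19 members lay below the series median in all 6 rats. Macrophage sums overlapped at 15746 to 16979 against 16223 to 18707, and neutrophil sums at 494.0 to 641.8 against 506.4 to 542.6. Bulk liver RNA does not tell fewer cells of a type from less RNA per cell, and the part of these cells in the interferon and other results was not tested. Pdgfrb lost its call without long rat 1 or 2, or short rat 1 or 2 (adjusted p up to 0.108). Pdgfrb missed the threshold with averaged probe sets and in the compared groups alone (adjusted p up to 0.246). Its other probe set differed by 0.01.

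Clofibrate, a peroxisome proliferator, was given to long and short rats of the same set and shares no array with the Dioxane contrast. The question was whether the Dioxane duration difference departed from it. By the limma interaction 0 of 11007 genes passed (0.0%), 605 had an unadjusted p under 0.05, and the median 95% interval reached 0.38 to either side. The smallest adjusted p was 0.315, for Bcl6, whose duration difference was 2.91 with Dioxane and -2.16 with Clofibrate, a gap of 5.07 with an interval of 2.96 to 7.18 before adjustment. For Fkbp5 the gap was -2.04 ± 0.51 and for Mcm6 1.22 ± 0.28, neither past the adjusted threshold. Mcm6 did pass in the nongenotoxic set alone (adjusted p = 0.0255), and Fkbp5 passed without Clofibrate short rat 2 (adjusted p = 0.01). Bmal1 differed by 2.72 with Dioxane and 2.92 with Clofibrate, a gap of -0.20 with an interval of -1.72 to 1.32. For Usp2 the corresponding values were -3.97 and -2.79 (interval of the gap -3.06 to 0.71). Missing the threshold does not show that both compounds acted alike. Clofibrate's own long minus short comparison called 382 genes (3.47%), and 145 were called in the same direction in both, 24.8% of the Dioxane calls and 38.0% of the Clofibrate calls, with 0 in opposite directions.

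Against Ethionine, an analogue of methionine in the same set, 4490 genes passed the interaction (40.8%), 1944 higher and 2546 lower in the Dioxane difference. Of the 584 Dioxane calls 358 were among them (61.3%). The calls were picked by the same Dioxane difference that enters the interaction, so this larger share is not a separate result. Egr1 differed by -2.87 with Dioxane and 1.62 with Ethionine (interaction -4.49 ± 0.87, adjusted p = 9.93e-05). Fkbp5 differed by -2.56 and 0.21 (interaction -2.77 ± 0.51, adjusted p = 5.53e-05). For Bmal1 the differences were 2.72 and 2.93, with an interaction of -0.21 and an interval of -1.73 to 1.31 (adjusted p = 0.85). Ethionine's own comparison called 5684 genes (51.6%), and its differences make up part of the 40.8%.

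**Figure D4:**
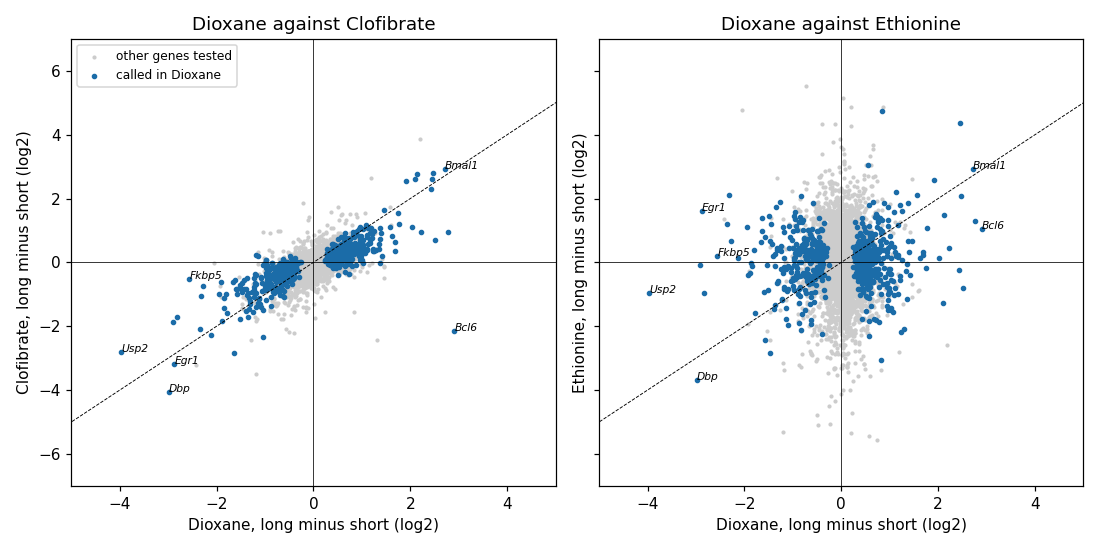
Long minus short difference in log2 signal with Dioxane (x axes) against the same difference with Clofibrate (left) and Ethionine (right, y axes), 1 point per gene tested, with the 584 Dioxane calls in blue and the line of equality dashed. With Clofibrate 542 of the 584 share the sign of the Dioxane difference, with Ethionine 302.

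Over the other 9 compounds, the same sign as Dioxane among the 584 calls was seen in 542 with Clofibrate, 452 with ME, 422 with DEN, 389 with SN, 384 with Urethane, 340 with AAF, 324 with DCP, 302 with Ethionine and 279 with MeDAB. As shares these ran from 92.8% with Clofibrate, against 67.1% of all genes tested, to 47.8% with MeDAB, against 49.3%. They were 77.4% with ME (59.3% of all genes), 72.3% with DEN (57.9%), 66.6% with SN (54.9%), 65.8% with Urethane (55.9%) and 58.2% with AAF (50.7%). The shares with DCP (55.5% against 54.6%) and Ethionine (51.7% against 49.0%) were close to those of all genes. Across 11007 genes, which are not independent, the correlation with the Dioxane difference was 0.63 for Clofibrate, 0.31 for ME, 0.23 for DEN and 0.19 for Urethane, and between -0.10 and 0.09 for the other 5. These are descriptions with no test, and the 3 sets appear to have been normalized apart. By gene, Bmal1 had the same sign in 5 of 9 compounds, from -1.87 to 2.93. Usp2 did so in 6 of 9, Dbp in 5, Igtp in 5, Mcm6 in 3, Fkbp5 in 8 and Bcl6 in 5.

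Relative to the control rats, the control mean was nearer to long than to short in 267 of the 338 higher genes and 180 of the 246 lower ones, against 6733 of 11007 genes tested (61.2%). Taken singly, control rats 1, 2 and 3 were nearer to long in 215, 266 and 269 of the 338 higher genes and in 175, 181 and 157 of the 246 lower ones. Over all genes tested their shares were 58.2%, 58.9% and 59.9%. This is a description of levels with no test, and the labels give the control rats no time.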

How the data were processed

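Affymetrix rat arrays measured liver RNA, 1 array for each of 65 rats. The authors deposited log2 RMA values for 31099 probe sets, and neither the labels nor the submitters' processing notes give a version of RMA, which combines background correction, quantile normalization and a summary over the probes of each set. Lowest and highest values of the 3 sets (genotoxic, nongenotoxic, test) did not overlap, so each appears normalized apart. Arrays have no read depth, and the 3 per group limit the precision.

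For each of 14217 genes the brightest single-symbol probe set by its mean over all arrays stood for the gene (20826 probe sets had 1 symbol, 436 several and 9780 none, and 57 controls were left out). Genes above the median of the table (6.03) in at least 2 of 41 arrays were tested, 11007 in all. A linear model with 1 mean for each of 14 groups, genotoxic and nongenotoxic sets together, was fitted with limma 3.58.1 in R 4.3.3 (27 residual degrees of freedom), two-sided, with Benjamini-Hochberg adjustment within each comparison and calls at adjusted p under 0.05. A gene list's summed signal adds its members' linear values. The fit was tested on simulated data. Promoters are from RefSeq (GRCr8).

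The 6 rats, the gene lists and the tests were chosen with earlier results of these data known. Named genes are the 15 largest rises and 15 largest falls among called genes without overlap, up to 6 called members per list (with fewer than 2, also the 2 brightest), the core clock genes, the 5 highest and 5 lowest of each interaction, and Cyp2e1. The control rat left out of the spread was an alternative chosen after seeing the data. The other alternatives were 2 filters, a trended and robust prior, averaged probe sets and joint quantile normalization of the 65 columns. Further ones were the nongenotoxic set only, a replicate block within that set, the compared groups only and each rat left out. Cyp2b1 was not analysed here.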

Additional observations from a re-analysis of the deposited data

Results flagged for a closer look

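The long minus short difference of Dioxane departed from that of Ethionine in 4490 genes by the limma interaction, and the genes below passed that test of the difference between both compounds. Values are the Dioxane difference minus the Ethionine difference on the log2 scale. Genes picked for a large Dioxane difference carry that same difference into the interaction.

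Among the largest rises with Dioxane, the interaction was 3.33 for Obp3, 2.68 for Socs2, 1.77 for Sqor and 3.38 for Inhba. It was 1.89 for Ifgga2l1, 1.92 for Poteml2 and 1.37 for Rnf125. Among the largest falls it was -3.00 for Usp2, -2.81 for Zfp354a, -4.49 for Egr1, -2.77 for Fkbp5 and -3.54 for Gadd45a. Tsku gave -4.42, Fmo2 -2.95, Mfsd2a -2.28 and Coq10b -3.04. Ifrd1 gave -1.56, Rhbdd2 -1.83 and Por -1.73.

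The highest interactions of all called genes were those of Dao (6.29), Gstp3 (6.00), Fads1 (5.54), Bdh1 (4.93) and Fads2 (4.81), and the lowest those of Pbsn (-6.82), Cdkn1a (-6.24), Hist3h2ba (-5.10), Acot1 (-4.73) and Akr1b8 (-4.68). None of these 10 was called in the Dioxane difference itself.

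Groups of 3 rats were too small for a test of single outlying samples.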

How the results depend on the processing

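Dioxane long minus short called 584 genes. The count was 540 without the filter, 570 with the stricter filter, 505 with the mean of all probe sets and 577 with trend and robust. It was 619 after quantile normalization of all columns (313 higher, 306 lower), 786 in the nongenotoxic set alone and 552 in the compared groups alone. In that order, these lists held 522, 488, 462, 564, 523, 524 and 384 of the 584 genes. Lists of like size thus differed in members, most of all in the compared groups alone. Leaving out each Dioxane rat gave 244 to 484 genes, 131 to 292 higher and 113 to 192 lower, with 236 to 400 of the 584 among them. The fit without control rat 1, chosen after seeing the data, gave 577 (331 higher, 246 lower).

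The replicate numbers did not pair the rats: same-numbered long and short rats correlated in their deviations by 0.08, -0.03 and 0.06, and not every rat correlated best with its own number. The fit with a replicate block called 700 genes, and Junb, Tsc22d3, Igfbp1, Aqp7, Mlxipl, Nfe2l2 and Odc1 missed the threshold in it.

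The Dioxane minus Clofibrate interaction called 0 genes. It called 1, Mcm6, in the nongenotoxic set alone (1 higher) and with the replicate block (1 higher), and 2 in the compared groups alone, Esrrg (1 higher) and Polg2 (1 lower), both named after their values were seen. Leaving out each rat gave 0 to 1, the 1 being Fkbp5 without Clofibrate short rat 2. The cause was not tested. The test of Dioxane minus Ethionine in long minus short called 3813 to 4922 genes over all alternatives.

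Of 83 named genes called in the duration comparison, 31 kept their calls under every alternative other than the fit without control rat 1. No result changed direction while called. Signal near background limits genes of low level, and 3 rats per group limit the rest.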
